A study of Mus musculus with 6 samples.

Results

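Cells decide between survival and mitochondrial death through the BCL2 protein family. Its antiapoptotic members hold the outer mitochondrial membrane intact by binding proapoptotic relatives. The effectors BAK and BAX, and the related BOK, can open that membrane and release cytochrome c. The BH3-only proteins carry stress signals to the other classes, either by occupying the antiapoptotic proteins or by activating the effectors. In the developing brain the family governs how many neural progenitors and newborn neurons survive.

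The genes described here are 10 members of this family, taken by symbol from a deposited table of 22322 genes, and each symbol stood for 1 row. They are the antiapoptotic genes Bcl2, Bcl2l1, Bcl2l2 and Mcl1, the effector genes Bak1 and Bok, and the BH3-only genes Bid, Bad, Bcl2l11 and Bmf. RNA was taken from neural stem progenitor cells of wild-type mice, self-renewing cells that can form neurons and glia, grown in a conditioned medium setting according to the series title. The tested cells had received PTN, read here as the secreted growth factor pleiotrophin, and the Control cells PBS. Both groups were collected at 24 h and had 3 libraries each. The sources used here give no PTN dose, brain region or age of the source animals. Whether replicates came from different cultures or animals is not labelled. The p-values therefore speak of the spread between libraries alone, which may be technical.

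After PTN, 3 of the 10 members rose and 1 fell. Bmf, which encodes a BH3-only protein, was 3.79-fold lower in PTN than in Control. Bcl2 was 2.18-fold and Mcl1 1.62-fold higher in PTN, and both encode survival proteins. The third gene that rose, Bid, at 1.61-fold, encodes a BH3-only death protein. None of these 4 calls held when any 1 of PTN 1, Control 1, Control 2 and Control 3 was left out. Every antiapoptotic member had higher values in all 3 PTN libraries than in any Control library, while 3 of the 6 proapoptotic members, Bak1, Bcl2l11 and Bmf, had lower values in all PTN libraries. Of all 13161 genes tested with edgeR's quasi-likelihood test, 7.99% were called at an adjusted p under 0.05, 4.93% higher and 3.06% lower in PTN. The members' 8 genes with groups that did not overlap, 5 higher and 3 lower, stand beside 32.9% of all tested genes, 15.7% higher and 17.1% lower.

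**Figure D1:**
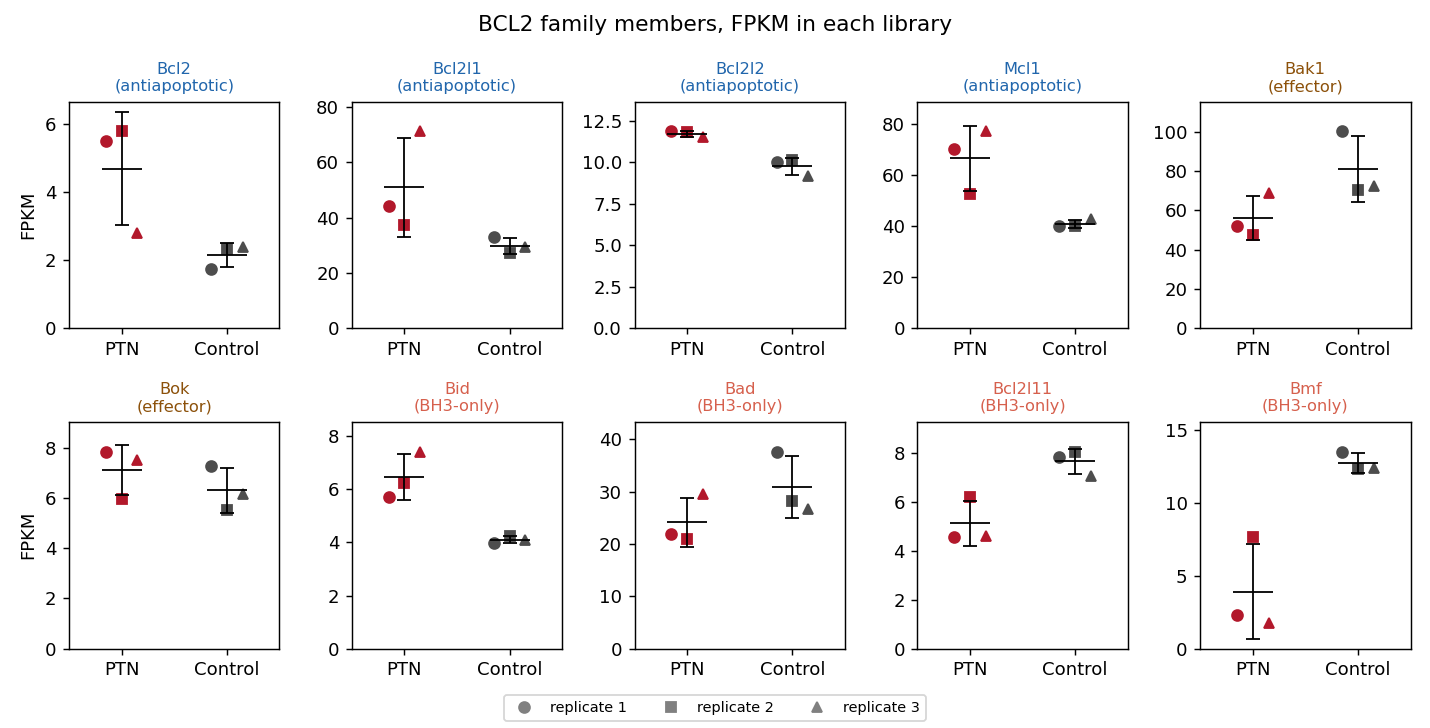
FPKM of each member in PTN (red, left) and Control (grey, right) libraries, with the replicate numbers as symbols. Horizontal lines are means and bars 1 SD (n = 3 each), and each axis starts at 0. PTN and Control points are separate in 8 of the 10 panels and overlap for Bok and Bad.

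The libraries held 19267764 to 25975205 expected counts in PTN and 21268297 to 26341745 in Control. PTN 3 and PTN 2 lay at opposite ends of the second principal component of log2 CPM, which held 23.3% of the variance. PTN 3 also stood apart in that its Y-linked genes summed to 7.96 CPM against 30.3 to 102 CPM in the other libraries. For the neural stem and progenitor label 11 markers were read, among them Sox2, Nes and Fabp7. All 11 were expressed, and their sum was 9902 to 11052 CPM in PTN and 7356 to 8446 CPM in Control. Vim, the 1 called higher, averaged 5165 CPM in PTN and 3448 CPM in Control. By log2 fold change 8 were positive and 3 negative. In Control their sum was near that of the astrocyte markers, so these levels alone do not set progenitors apart from astrocytes. The summed astrocyte markers differed between the groups, though the 7 markers did not all move alike. Their sum was 2458 to 5291 CPM in PTN and 8015 to 8329 CPM in Control, and 3 of 7 fell, Gfap, Aldoc and Gjb6. Slc1a2 and Aqp4 overlapped between the groups, and S100b, not called, was higher in every PTN library. Of 6 tested oligodendrocyte lineage markers 2 fell, with sums of 392 to 520 CPM in PTN and 492 to 590 CPM in Control. Of 9 tested neuron markers 6 had a positive and 3 a negative log2 fold change, and 2 were called higher, both at low levels. These were Slc17a7 (mean 0.755 CPM in PTN and 0.187 CPM in Control) and Gad1 (4.06 and 1.78 CPM). The sums, 311 to 520 CPM in PTN and 261 to 395 CPM in Control, were mostly Map2, which was not called. Tubb3, not called either, was lower in every PTN library, and Slc17a6 had 0 counts throughout. The 7 microglia markers summed to 2.34 to 2.99 CPM in PTN and 2.03 to 3.90 CPM in Control, and Aif1 and Tmem119 had 0 counts in every PTN library. The 6 endothelial and mural markers summed to 8.34 to 11.7 CPM in PTN and 10.9 to 14.0 CPM in Control, with 1 of 4 tested members called lower. A shift in cell types and a change of RNA per cell cannot be told apart in such bulk libraries, and the part of these markers in the members' changes was not tested.

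Promoter windows of the 4 members that were called, and of the BH3-only gene Bcl2l11, which was lower in all PTN libraries, are printed to show the sequence around their starts. They come from RefSeq on build GRCm38.p6, run 5′ to 3′ on the gene's strand, and cover 250 bases before and 50 after a listed start. For Bmf and Bcl2l11, which have several listed starts, the window at the annotated 5′ end of the gene is shown. Capitals mark matches, on either strand, to 5 motifs. These were the FOXO element GTAAACA, the cyclic AMP response element TGACGTCA, the AP-1 site TGACTCA, the E-box CACGTG and the GC box GGGCGG. The windows lie on the minus strand at chr1:106714241-106714540 (Bcl2), on the plus strand at chr3:95658471-95658770 (Mcl1), on the minus strand at chr6:120916775-120917074 (Bid), on the minus strand at chr2:118549637-118549936 (Bmf) and on the plus strand at chr2:128125788-128126087 (Bcl2l11).
Bcl2: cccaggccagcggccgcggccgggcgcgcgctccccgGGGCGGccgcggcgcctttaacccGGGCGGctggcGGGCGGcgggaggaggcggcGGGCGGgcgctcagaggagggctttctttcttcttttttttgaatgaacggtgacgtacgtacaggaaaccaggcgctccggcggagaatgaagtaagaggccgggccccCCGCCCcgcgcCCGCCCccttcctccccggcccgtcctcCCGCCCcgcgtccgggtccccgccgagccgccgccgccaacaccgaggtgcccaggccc
Mcl1: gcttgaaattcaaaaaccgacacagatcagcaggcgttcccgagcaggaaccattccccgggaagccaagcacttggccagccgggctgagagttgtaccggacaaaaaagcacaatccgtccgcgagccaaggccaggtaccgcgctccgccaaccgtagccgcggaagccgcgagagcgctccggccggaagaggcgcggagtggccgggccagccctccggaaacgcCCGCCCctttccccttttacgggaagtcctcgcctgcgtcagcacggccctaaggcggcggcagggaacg
Bid: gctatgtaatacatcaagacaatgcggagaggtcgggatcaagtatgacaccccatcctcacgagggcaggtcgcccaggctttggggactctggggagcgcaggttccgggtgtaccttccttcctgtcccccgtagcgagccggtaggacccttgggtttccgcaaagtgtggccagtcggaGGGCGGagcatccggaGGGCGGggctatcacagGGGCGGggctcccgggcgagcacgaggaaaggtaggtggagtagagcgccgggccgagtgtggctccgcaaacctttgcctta
Bmf: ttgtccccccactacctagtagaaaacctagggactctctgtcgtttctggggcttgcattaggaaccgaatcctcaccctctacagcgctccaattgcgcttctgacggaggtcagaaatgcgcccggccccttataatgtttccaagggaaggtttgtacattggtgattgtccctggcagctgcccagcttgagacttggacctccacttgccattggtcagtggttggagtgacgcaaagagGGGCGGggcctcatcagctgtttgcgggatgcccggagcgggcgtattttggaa
Bcl2l11: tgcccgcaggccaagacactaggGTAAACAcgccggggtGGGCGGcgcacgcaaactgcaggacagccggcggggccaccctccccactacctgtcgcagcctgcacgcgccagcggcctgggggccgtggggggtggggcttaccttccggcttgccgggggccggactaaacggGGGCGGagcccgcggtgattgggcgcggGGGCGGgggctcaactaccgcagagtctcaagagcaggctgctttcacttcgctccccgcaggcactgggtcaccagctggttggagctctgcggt

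GC boxes were found in all 5 printed windows, 7 of them at Bcl2, 1 at Mcl1, 3 at Bid, 1 at Bmf and 3 at Bcl2l11. Over all 10 members, all of which matched the table, 9 of 16 windows held a GC box, beside 35.7% of the 32851 promoter windows of the whole table. GC content was 76% at Bcl2, 65.7% at Mcl1, 63.3% at Bid, 55.3% at Bmf and 71% at Bcl2l11, against a median of 52.7% over all windows. The FOXO element occurred in 1 of the 16 windows, that of Bcl2l11 printed above, a gene known as a FoxO target, and in 3.65% of all windows. Matches to the cyclic AMP response element, the AP-1 site and the E-box were in 0 of the 16 windows, and in 1.79%, 5.2% and 7.15% of all windows. In the printed windows, matches to different motifs did not overlap. A match is a stretch of letters and not a measured binding site.

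Among the antiapoptotic genes, Mcl1 was the most abundant per length. Its protein is short-lived and needed by neural progenitors. Mcl1 stood at 70.2, 52.6 and 77.2 FPKM in the PTN libraries, against 40.1, 40.2 and 42.9 FPKM in the Control libraries. The Control libraries lay close together and all PTN libraries lay above them, PTN 2 least so. The log2 fold change was 0.70 ± 0.16 (SE, n = 3 each, edgeR adjusted p = 0.0324), with 220.5 ± 36.0 CPM in PTN and 136 ± 2.34 CPM in Control (SD). Without PTN 1 or any 1 Control library the edgeR adjusted p was 0.0997 to 0.146.

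Bcl2, the founding survival gene of the family, was the least abundant antiapoptotic member. It reached 5.49, 5.78 and 2.79 FPKM in the PTN libraries, against 1.75, 2.33 and 2.40 FPKM in the Control libraries. PTN 3 lay just above the highest Control library, and the other PTN libraries far above it. Its log2 fold change was 1.12 ± 0.28 (SE, n = 3 each, edgeR adjusted p = 0.0441). Without PTN 1, PTN 2 or any 1 Control library it was not called (edgeR adjusted p 0.106 to 0.170). With a gene length trend removed from each library it was 0.83, with an edgeR adjusted p = 0.0639, and that of Mcl1 was 0.63, with an edgeR adjusted p = 0.0508. Over 11 such alternatives in processing the adjusted p ranged from 0.00182 to 0.0732 for Bcl2 and from 0.00136 to 0.0829 for Mcl1.

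Bcl2l1 encodes BCL-XL, the main survival protein of maturing neurons, and the gene-level counts do not separate its long and short forms. It was at 44.3, 37.3 and 71.1 FPKM in the PTN libraries, against 33.0, 27.2 and 29.5 FPKM in the Control libraries. PTN 3, the lowest PTN library for Bcl2, was the highest for Bcl2l1. The groups did not overlap, yet the difference missed the threshold (log2 fold change 0.84, 95% interval 0.30 to 1.38 before adjustment for the number of genes, edgeR adjusted p = 0.0655). DESeq2 called it (adjusted p = 0.00925), and the adjusted p ranged from 0.00925 to 0.0952 over 11 alternatives in processing. Bcl2l2, which encodes BCL-W, was at 11.9, 11.8 and 11.5 FPKM in PTN and 10, 10.1 and 9.17 FPKM in Control. The groups did not overlap. Its log2 fold change of 0.28 had an interval of -0.02 to 0.59 and an edgeR adjusted p = 0.212. Its counts were fractional in 5 of the 6 libraries.

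Of the effectors, Bak1, whose protein forms pores in the outer mitochondrial membrane, was the most abundant member in Control cells. It stood at 52.0, 47.4 and 68.9 FPKM in the PTN libraries, against 100.1, 70.4 and 72.3 FPKM in the Control libraries. The groups did not overlap, with PTN 3 just below the nearest Control library. The difference was not called (log2 fold change -0.49, interval -0.93 to -0.05, edgeR adjusted p = 0.151). Bok, which encodes a BAX-like protein kept low by protein turnover, ranged over 5.96 to 7.84 FPKM in PTN and 5.50 to 7.27 FPKM in Control, so the groups overlapped (log2 fold change 0.20, interval -0.26 to 0.67, edgeR adjusted p = 0.528). Neither effector was called by edgeR or by DESeq2, and 1 of them, Bak1, had an unadjusted edgeR p under 0.05.

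Bmf had the largest change of the 10 members. Its protein is held on the actin-based motor machinery and is known to be released when cells lose attachment. Bmf was at 2.31, 7.68 and 1.73 FPKM in the PTN libraries, against 13.5, 12.3 and 12.4 FPKM in the Control libraries. These rest on 246, 577 and 106 counts in PTN and 1336, 1388 and 969 counts in Control. PTN 2 lay between the other PTN libraries and Control. The log2 fold change was -1.92 ± 0.47 (SE, n = 3 each, edgeR adjusted p = 0.0414), and over the 11 alternatives in processing the adjusted p ranged from 0.000152 to 0.0446. Without PTN 1 or any 1 Control library it was 0.0903 to 0.136, and without PTN 2 the fall was 6.81-fold. Of the 7 astrocyte markers 5 had a negative and 2, Aqp4 and S100b, a positive log2 fold change. Gfap, chosen after its values were seen, was at 342, 1685 and 414 CPM in PTN against 3740, 3614 and 3601 CPM in Control, and was, like Bmf, highest in PTN 2 among the PTN libraries. Aqp4 was at 231, 841 and 165 CPM in PTN, against 225, 453 and 370 CPM in Control.

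The length that the deposited FPKM values imply for Bmf also varied. It was 4100, 3364 and 3180 bases in the PTN libraries and 4200, 4270 and 3677 bases in the Control libraries, the highest being 1.34 times the lowest. Over 10889 tested genes with at least 1 FPKM in every library the median of this ratio was 1.03, and 4.24% reached that of Bmf. The ratio was 1.14 or less for the other 9 members. The main fold changes come from counts and were not corrected for such length differences between libraries. The deposited FPKM carry each library's own implied length. With limma on log2(FPKM + 1) the log2 fold change of Bmf was -1.68 (limma adjusted p = 0.0332). With limma on log2(FPKM + 0.1) it was -1.98 (limma adjusted p = 0.0343).

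Bcl2l11 encodes BIM, a strong activator of the effectors and a known FoxO target in neurons. It had 4.55, 6.19 and 4.60 FPKM in the PTN libraries, against 7.84, 8.05 and 7.06 FPKM in the Control libraries. As for Bmf, all PTN libraries lay below Control and PTN 2 lay nearest to it. The difference was not called (log2 fold change -0.57, interval -0.97 to -0.17, edgeR adjusted p = 0.0859). It was called with the length trend removed (log2 fold change -0.72, edgeR adjusted p = 0.0411) and by DESeq2 (adjusted p = 0.0444), and the adjusted p ranged from 0.0411 to 0.156 over the alternatives in processing.

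**Figure D2:**
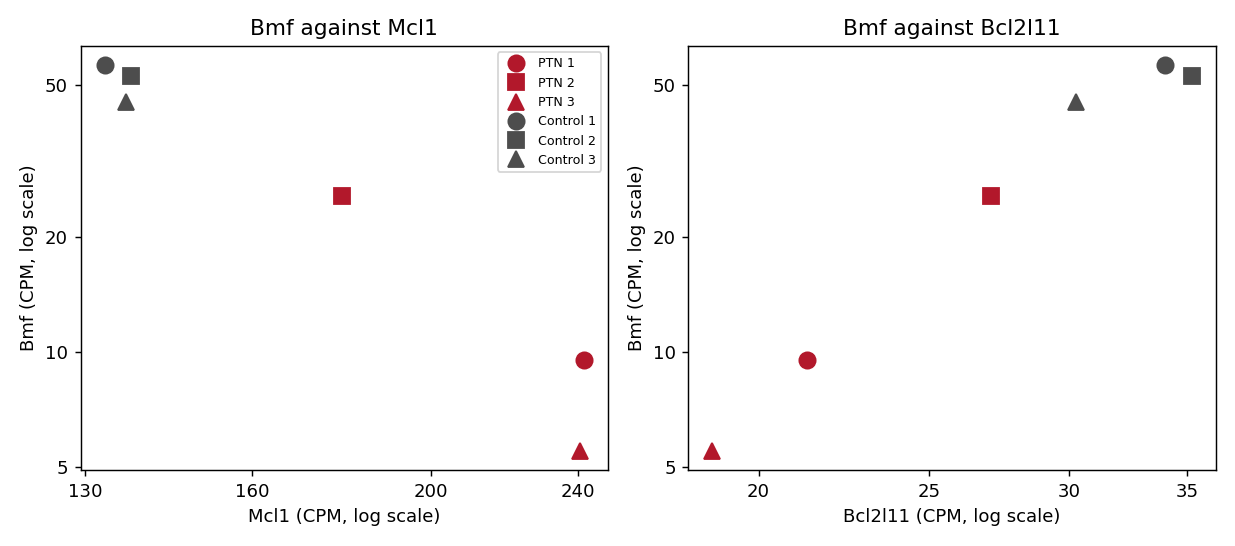
CPM of Bmf against Mcl1 (left) and against Bcl2l11 (right) in each library, both axes on a log scale, with PTN in red and Control in grey and the replicate numbers as symbols. PTN 2 lies between the Control libraries and the other PTN libraries in both panels, at 25.7 CPM of Bmf, against 9.55 and 5.51 CPM in PTN 1 and PTN 3 and 45.3 to 56.5 CPM in Control.

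Bid, whose protein is cut by caspase-8 and links death receptors to mitochondria, went the other way from Bmf. It was at 5.73, 6.26 and 7.43 FPKM in the PTN libraries, against 3.99, 4.25 and 4.08 FPKM in the Control libraries. All PTN libraries lay above Control, PTN 3 the most. The log2 fold change was 0.68 ± 0.18 (SE, n = 3 each, edgeR adjusted p = 0.0496), just inside the threshold. With any 1 library left out the edgeR adjusted p was 0.0596 to 0.191. Bid was called in only 4 of the 11 alternatives in processing, over which the adjusted p ranged from 0.01 to 0.13. The narrowest loss of its call was with library totals as scaling (edgeR adjusted p = 0.0505). Bad encodes the BH3-only protein that growth factor kinases inactivate by phosphorylation. It was at 21.95, 20.9 and 29.5 FPKM in PTN and 37.6, 28.2 and 26.7 FPKM in Control, and the groups overlapped because PTN 3 lay above Control 2 and Control 3. Its log2 fold change was -0.35 (interval -0.76 to 0.05, edgeR adjusted p = 0.235).

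**Figure D3:**
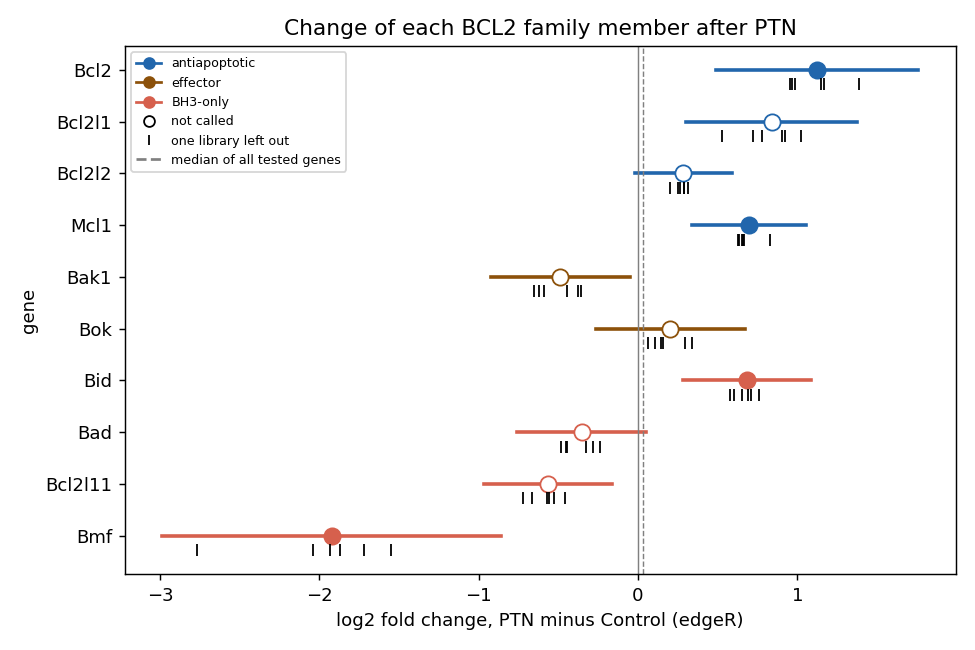
Log2 fold change of each member, PTN minus Control, by edgeR, with the 95% interval as a line, and filled points where the adjusted p was under 0.05. Black ticks are the same value with 1 library left out in turn, and the dashed line is the median of all tested genes, 0.03. All ticks lie on the same side of 0 as their point, those of Bmf reaching -2.77 and -1.55.

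In the refits without PTN 1, Control 1, Control 2 or Control 3, 0 members were called by edgeR, and no other tool was run. There 6 to 7 of 10 members had an unadjusted edgeR p under 0.05, and the count over all genes was not taken. Such a refit has fewer libraries and also called fewer genes in all, 331 to 513. With all 6 libraries 1938 of 13161 tested genes were higher and 1611 lower at that unadjusted p, beside 4 and 3 of the 10 members. Without PTN 2, the called members were Mcl1, Bmf, Bcl2l1 and Bcl2l11. Without PTN 3 they were Mcl1, Bmf, Bcl2 and Bak1.

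By class, all 4 antiapoptotic members had a positive log2 fold change, with a median of 0.77, 2 called higher and 0 lower (3 and 0 by DESeq2 and at an unadjusted edgeR p under 0.05). Of the 6 proapoptotic members 2 were positive and 4 negative, with a median of -0.42, 1 called higher and 1 lower. DESeq2 called 1 of these higher and 2 lower, and 1 and 3 had an unadjusted edgeR p under 0.05. Over all 13161 tested genes 52.5% were positive and the median was 0.03, with 4.93% called higher and 3.06% lower. DESeq2 called 1134 of all tested genes higher and 774 lower, and 1938 and 1611 had an unadjusted edgeR p under 0.05. Log2 fold changes followed gene length, with a median of -0.24 in the shortest eighth of the tested genes, which held Bad, and 0.30 in the longest, which held Bcl2. Bak1 and Bok lay in the next shortest eighth. With this trend removed 0 antiapoptotic members were called by edgeR, and Bid, Bcl2l11 and Bmf were the 3 members called. Summed per length, antiapoptotic members reached 132, 107 and 163 FPKM in the PTN libraries, against 84.8, 79.8 and 83.9 FPKM in the Control libraries. The proapoptotic members summed to 94.4, 94.3 and 119.6 FPKM in the PTN libraries, against 170, 129 and 129 FPKM in the Control libraries. In FPKM the antiapoptotic sum was the larger in all PTN libraries and the smaller in all Control libraries. The side of 1 on which a Control library lay depended on the measure.

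The ratio of these sums was 1.40, 1.14 and 1.36 in the PTN libraries, against 0.498, 0.620 and 0.652 in the Control libraries, a 2.21-fold difference of geometric means. It is a score over chosen genes and was not tested. With summed CPM the ratio was 2.69, 2.07 and 2.53 in PTN and 0.874, 1.03 and 1.08 in Control, and with geometric means of FPKM 2.35, 1.74 and 2.09 in PTN and 0.820, 0.982 and 1.02 in Control. Bax, the other main effector gene and more abundant per length than any of the 10 on average, is not among them. With Bax, Bbc3 and Pmaip1 counted as proapoptotic, which was chosen after the data were seen, the ratio was 0.593, 0.516 and 0.562 in PTN and 0.269, 0.336 and 0.333 in Control. The difference was then 1.79-fold, and the proapoptotic sum was the larger in every library.

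**Figure D4:**
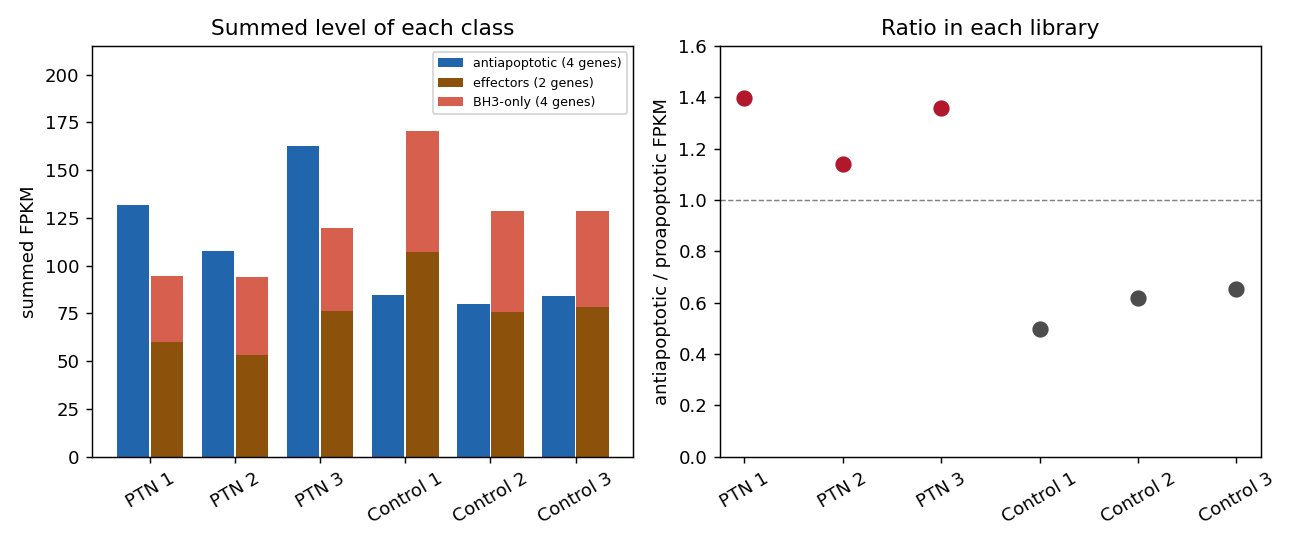
Left, summed FPKM of the antiapoptotic members (blue) beside the effectors (brown) and BH3-only members (red, stacked on the effectors) in each library. Right, the ratio of the antiapoptotic to the proapoptotic sum, with a dashed line at 1. PTN points lie at 1.14 to 1.40 and Control points at 0.498 to 0.652, and the position of the line relative to Control changes where sums are taken in CPM.

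The make-up within classes differed by class. Mcl1 made up 49.9 ± 3.01% of the antiapoptotic FPKM in PTN and 49.6 ± 2.03% in Control, and Bcl2l1 37.3 ± 5.58% in PTN and 36.0 ± 2.54% in Control (SD, n = 3 each). Bmf made up 6.69, 18.7 and 4% of the BH3-only FPKM in the PTN libraries, against 21.5, 23.3 and 24.7% in the Control libraries. The share of Bid was 16.6, 15.3 and 17.2% in the PTN libraries, against 6.34, 8.04 and 8.13% in the Control libraries. Bad held most of the BH3-only sum in both groups, 60.9 ± 8.95% in PTN and 55.4 ± 3.76% in Control. The BH3-only sum was 34.5, 41.0 and 43.2 FPKM in the PTN libraries and 63.0, 52.9 and 50.2 FPKM in the Control libraries, without overlap.

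In PTN cells the order of levels per length began with Mcl1 (66.7 ± 12.7 FPKM), Bak1 (56.1 ± 11.3 FPKM) and Bcl2l1 (50.9 ± 17.9 FPKM), whose neighbouring ranges overlapped. Bad (24.1 ± 4.68 FPKM) and Bcl2l2 (11.7 ± 0.193 FPKM) followed with separate ranges, and Bok, Bid, Bcl2l11, Bcl2 and Bmf, between 7.10 and 3.91 FPKM on average, overlapped each with the next. Control cells had Bak1 first (80.9 ± 16.6 FPKM), above Mcl1 (41.1 ± 1.58 FPKM). Next came Bad and Bcl2l1, which overlapped, and then Bmf (12.8 ± 0.667 FPKM), Bcl2l2, Bcl2l11, Bok, Bid and Bcl2 (2.16 ± 0.357 FPKM), where Bcl2l11 and Bok overlapped. By its mean Bmf held rank 10 in PTN and rank 5 in Control, but in PTN 2 alone it held rank 6. Mcl1 stood 1.35, 1.11 and 1.12 times as high as Bak1 in the PTN libraries, against 0.401, 0.571 and 0.593 times in the Control libraries.

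Further BCL2 family genes that are not among the 10 included a pair of BH3-only genes that rose. Of 15 such genes 7 were tested, with 2 higher and 0 lower, beside 4.93% higher and 3.06% lower of all tested genes. The p53 target Pmaip1, whose NOXA protein neutralises MCL1, had 12.1, 8.91 and 7.86 FPKM in the PTN libraries, against 2.31, 3.40 and 3.06 FPKM in the Control libraries (log2 fold change 1.70 ± 0.24 SE, edgeR adjusted p = 0.00638). Bbc3, which encodes PUMA, had 10.9, 11.3 and 13.2 FPKM in the PTN libraries, against 7.58, 5.68 and 6.55 FPKM in the Control libraries (log2 fold change 0.84 ± 0.16 SE, edgeR adjusted p = 0.0165). Both were higher in every PTN library. Bax was at 105, 93.6 and 149 FPKM in PTN and 136, 99.7 and 113 FPKM in Control, with overlapping groups (log2 fold change 0.02, interval -0.44 to 0.48, edgeR adjusted p = 0.946).

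Downstream of the family, none of the 16 genes of mitochondrial release and the apoptosome was called by edgeR or by DESeq2. Over all tested genes edgeR called 7.99%. Of the 16, 1 had an unadjusted edgeR p under 0.05, beside 1938 higher and 1611 lower of all 13161 tested genes. The 1 release gene was Apaf1, the scaffold of the apoptosome, with 53.5 ± 2.71 CPM in PTN and 41.4 ± 5.13 CPM in Control (log2 fold change 0.37, edgeR adjusted p = 0.154). The median log2 fold change of the 16 was -0.18, with 3 positive and 13 negative. Of 24 tested upstream regulators and partners of the members 1 rose and 1 fell, beside 4.93% higher and 3.06% lower of all tested genes. Ppp3ca, a catalytic subunit of the phosphatase calcineurin, which dephosphorylates BAD, was at 236 ± 63.2 CPM in PTN and 117 ± 16.8 CPM in Control (log2 fold change 1.01 ± 0.22 SE, edgeR adjusted p = 0.0277). Rps6ka1, which encodes an ERK-activated kinase able to phosphorylate BAD, was at 124 ± 34.0 CPM in PTN and 253 ± 30.3 CPM in Control (log2 fold change -1.03 ± 0.21 SE, edgeR adjusted p = 0.0215).

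Each called member was also compared with 9437 genes of at least 10 CPM on average for the likeness of their log2 CPM over the 6 libraries. A high Pearson r can reflect the group difference as well as the order within it, and it is given as a description without a test. Closest to Bmf were Phactr1 (r = 0.996), Nt5c2 (0.995) and Nat8f4 (0.994). Closest to Bcl2 were Cstf2t (0.999), Rgs20 (0.999) and Plekhg1 (0.995). Sema6d (0.998), Foxc1 (0.996) and Sri (0.995) lay closest to Mcl1, and Adgra1 (0.993), Ahcyl2 (0.992) and Zbtb2 (0.987) to Bid.

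Some members share their genomic span with another gene in the RefSeq table, and whether the counting used strand is not given. Of the called members, Bcl2 overlaps the miRNA gene Mir3473f and the lncRNA Gm37053, and Bid the pseudogene Gm17812. Their levels were not analysed here. Gpr137, which overlaps Bad, was at 25.2 ± 5.6 FPKM in PTN and 29.9 ± 5.11 FPKM in Control, near the levels of Bad itself, and Bad had fractional counts in 3 libraries. The values of Bad are uncertain to that extent. Ggnbp1, which overlaps Bak1, was at 1.45 ± 0.327 FPKM in PTN and 1.56 ± 0.518 FPKM in Control. Cox4i2, which overlaps Bcl2l1, averaged 0.313 FPKM in PTN and 0.52 FPKM in Control, and Acoxl, which overlaps Bcl2l11, averaged 0.02 FPKM in PTN and 0.027 FPKM in Control.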

How the data were processed

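RNA of 3 PTN and 3 Control libraries was measured. Per the labels' protocols, RNA was column-purified and 1.3 ug per library entered a SMARTER mRNA library kit. The authors deposited, per the file headers, expected counts and FPKM per gene and library. The expected counts are estimated, unscaled reads or fragments. The FPKM values are scaled per kilobase and library depth. The sources used here name no aligner, counting program, genome build or annotation. Columns were matched to samples by the initial of the group and the replicate number.

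Counts were rounded to whole numbers and filtered with filterByExpr (13161 of 22322 genes). They were TMM-scaled and compared with edgeR's quasi-likelihood test in edgeR 4.0.16 under R 4.3.3. The design had no covariate and fold changes are PTN over Control. Benjamini-Hochberg adjustment ran over all tested genes and the threshold was 0.05. The standard error (SE) is the log2 fold change over the root of F, and 95% intervals use the model's degrees of freedom. CPM are TMM-scaled, 1 CPM standing for 19.2 to 26.2 counts. The test was also run on simulated counts with less spread than these libraries. That run does not show how the test performs on these data.

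The members, the gene lists and the alternatives were chosen with earlier results of these data known. From each list of other family genes, release genes and regulators, the text names up to 4 called genes with the lowest p, the top gene by p if there was no call, and Bax in any case. For each called member the 3 genes of highest r were named, leaving out predicted genes. Alternatives were other scalings, filters, DESeq2 1.42.0, limma-voom and limma 3.58.1 on log2(FPKM + 1) and log2(FPKM + 0.1), the replicate number as a block, removal of a length trend and leaving out each library.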

Additional observations from a re-analysis of the deposited data

How the results depend on the processing

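All 10 members kept the direction of their log2 fold change in the 17 alternatives that give one for each member. By DESeq2's Wald test 1908 genes were called, and at an adjusted p under 0.1 1913 genes, against 1052. Members called numbered 4, but 6 by DESeq2's Wald test and at an adjusted p under 0.1, 3 under upper-quartile scaling, library totals, no filter and removal of the length trend, and 2 by limma-voom and by limma on either FPKM scale. Same-numbered libraries of the groups did not all deviate together (r = -0.51, 0.36 and -0.0049 for replicates 1, 2 and 3). PTN 2 alone of the PTN libraries correlated best with its own number. With 3 libraries per group these values cannot show whether the numbers pair the libraries. With the replicate block 1 member was called, Bmf, and 726 genes in all. With 1 library left out, 331 genes (without Control 3) to 2177 genes (without PTN 3) and 0 to 4 members were called. The log2 difference of the antiapoptotic to proapoptotic ratio, 1.14, was 1.02 to 1.23 with 1 library left out and 0.84 with Bax, Bbc3 and Pmaip1 added after seeing the data. Rounding counts down, also added then, left 4 members called. Counts went down to 106, for Bmf in PTN 3. The SE of Bmf, 0.47, stood beside PTN values of 9.55, 25.7 and 5.51 CPM. Bid, with 190 to 326 counts, had an SE of 0.18.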
